A study of Mus musculus with 2 samples.

Results

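The miR-130 and miR-301 family is a set of miRNA genes whose mature products share a seed, the stretch of bases 2 to 8 that pairs with target mRNAs. Its members here are Mir130a, Mir130b, Mir301 (also written Mir301a) and Mir301b, which lie at 3 loci. They were chosen by gene symbol, and all 4 were found among the 1973 miRNA genes of the deposited tables. Small RNA under 30 nt was sequenced from whole stomach of B6NCrl mouse embryos at embryonic day 15.5. Replicate 1 pooled stomachs of 78 healthy embryos of mixed sex, and replicate 2 those of 62. These are 2 libraries of 1 group, with no treatment, mutation or second condition, so the data allow comparisons between genes within the stomach and between the pools. The labels number the pools as separate biological replicates and list the same donor identifier for both, and pooling hides the spread between embryos.

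A miRNA is cut from a hairpin in a longer transcript, and the mature strand is loaded into Argonaute, where its seed selects mRNAs for repression. miRNAs with the same seed are predicted to share many targets, while the rest of the sequence can add to target choice. The miR-130 and miR-301 family is known for repressing Pparg, the nuclear receptor of fat cell formation, and for roles in vessels and growing cells. Mir130a is best known from endothelial cells and blood progenitors, and miR-301a from NF-kappaB signalling in human tumours. Mir130b and Mir301b are neighbours that can be transcribed together.

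The mature sequences show how alike the members are. They are given 5′ to 3′ from RefSeq on GRCm38.p6, with the seed in capitals, because the shared seed is what makes these genes a family.
mmu-miR-130a-3p: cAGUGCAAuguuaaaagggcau
mmu-miR-130b-3p: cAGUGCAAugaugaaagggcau
mmu-miR-301a-3p: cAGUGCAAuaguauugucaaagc
The mature entry of miR-301b-3p is missing from that table, so the hairpins are shown for all 4 genes, with the family seed again in capitals.
Mir130a hairpin: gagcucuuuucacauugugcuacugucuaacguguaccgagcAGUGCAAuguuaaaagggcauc
Mir130b hairpin: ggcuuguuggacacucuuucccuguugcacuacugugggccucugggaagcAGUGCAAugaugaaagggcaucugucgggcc
Mir301 hairpin: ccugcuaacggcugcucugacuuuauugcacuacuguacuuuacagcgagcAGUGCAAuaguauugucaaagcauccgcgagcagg
Mir301b hairpin: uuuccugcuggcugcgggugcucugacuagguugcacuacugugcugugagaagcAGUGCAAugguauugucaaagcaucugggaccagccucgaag

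The other arms of the hairpins have seeds of their own, shown here in capitals because the tables count both arms of a gene together.
mmu-miR-130a-5p: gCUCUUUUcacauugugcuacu
mmu-miR-130b-5p: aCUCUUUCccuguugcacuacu
mmu-miR-301a-5p: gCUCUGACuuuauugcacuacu
mmu-miR-301b-5p: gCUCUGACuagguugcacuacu
The seeds of miR-301a-5p and miR-301b-5p are the same. Those of miR-130a-5p and miR-130b-5p differ from these and from each other. How the counts of a gene divide between its arms cannot be read from the tables.

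The bases after the seed divide the family into a miR-130 type and a miR-301 type, with the neighbours Mir130b and Mir301b on different sides. Over the 22 bases that start 1 base before the seed, counted from 1 at the first of them, the Mir130a and Mir130b hairpins differed at 2 positions (U11A and A13G, Mir130a first). Mir301 and Mir301b differed at 1 position (A10G, Mir301 first). Across the types 9 to 11 positions differed, and every pair shared at least its first 9 bases. Mir130b and Mir301b, which lie side by side, differed at 10 of the 22 positions. Over whole hairpins, a global alignment gave 70.7% identical columns for Mir301 and Mir301b, the highest of the 6 pairs. By this measure whole hairpins did not follow the types otherwise. Mir130b was identical to Mir301 in 60.6% of columns, to its neighbour Mir301b in 59.6% and to Mir130a in 56.6%. Columns with gaps are counted, so unequal annotated lengths, from 64 bases for Mir130a to 97 for Mir301b, hold these percentages down. The Mir130a hairpin was the shortest, at 64 bases, and had the weakest predicted fold, at -22.1 kcal/mol. The predicted folds of the others were at -30.1 kcal/mol for Mir130b, -37.0 for Mir301 and -39.1 for Mir301b.

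The 3 loci differ in setting, by GENCODE M21 on GRCm38 (mm10). Mir130a (ENSMUSG00000065484.1) lies at chr2:84741115-84741178 on the minus strand, outside any other annotated gene, 990 bp from the nearest annotated gene, Gm19426. Mir130b (ENSMUSG00000065572.1) lies at chr16:17124061-17124142 and Mir301b (ENSMUSG00000076288.1) at chr16:17124400-17124496, both on the minus strand, with 257 bp between them. Both sit in intron 1 of the protein-coding gene 2610318N02Rik, on its strand, in each of the 3 transcripts that span them. Mir301b comes first in the direction of transcription, 493 bp after exon 1, and Mir130b 847 bp after it. Mir301 (ENSMUSG00000065589.1) lies at chr11:87113004-87113089 on the plus strand in intron 1 of Ska2, which encodes a kinetochore protein needed for chromosome segregation. The hairpin starts 3699 bp after exon 1. Within 10000 bp of a member, the only other listed miRNA gene was the partner in the Mir130b and Mir301b pair.

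**Figure D1:**
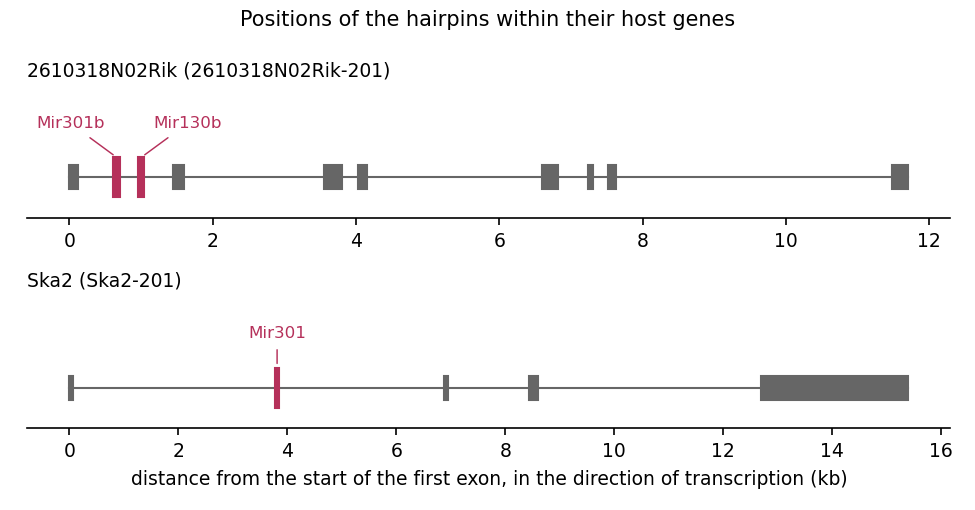
Exons (grey blocks) and family hairpins (red blocks) along 1 transcript each of 2610318N02Rik and Ska2, against the distance in kb from the start of the first exon. Mir301b and Mir130b share intron 1 of 2610318N02Rik with 257 bp between them, and Mir301 lies in intron 1 of Ska2.

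The members were counted at very unequal levels, in the same order in both pools. Values are sense counts scaled to CPM (counts per 1000000) of the sense-strand counts of all miRNA genes, which summed to 5988677 in replicate 1 and 6675498 in replicate 2. They are not divided by gene length, since a read covers a mature miRNA, whose annotated length in the family is 22 or 23 bases. Mir130a stood at 23679 CPM in replicate 1 and 20738 CPM in replicate 2 (141808 and 138437 counts). It was gene 9 in order of mean CPM among the 1973 listed, with a mean of 22209 ± 2080 CPM (SD, n = 2). Mir130b stood at 4560 CPM in replicate 1 and 4729 CPM in replicate 2 (27309 and 31569 counts). Its mean of 4645 ± 119 CPM (SD, n = 2) placed it at 42. Both genes of the miR-130 type were thus among the well-counted miRNAs of this tissue.

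The miR-301 type was lower. Mir301 stood at 1007 CPM in replicate 1 and 933 CPM in replicate 2 (6033 and 6226 counts), with a mean of 970 ± 52.8 CPM (SD, n = 2) and the place 100. Mir301b stood at 59.4 CPM in replicate 1 and 63.8 CPM in replicate 2 (356 and 426 counts), with a mean of 61.6 ± 3.09 CPM (SD, n = 2) and the place 220. No member overlapped its neighbour in this order: the lower value of each gene was above the higher value of the next. Opposite-strand counts were 1 in each library at Mir130a and 0 at the other 3 members.

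**Figure D2:**
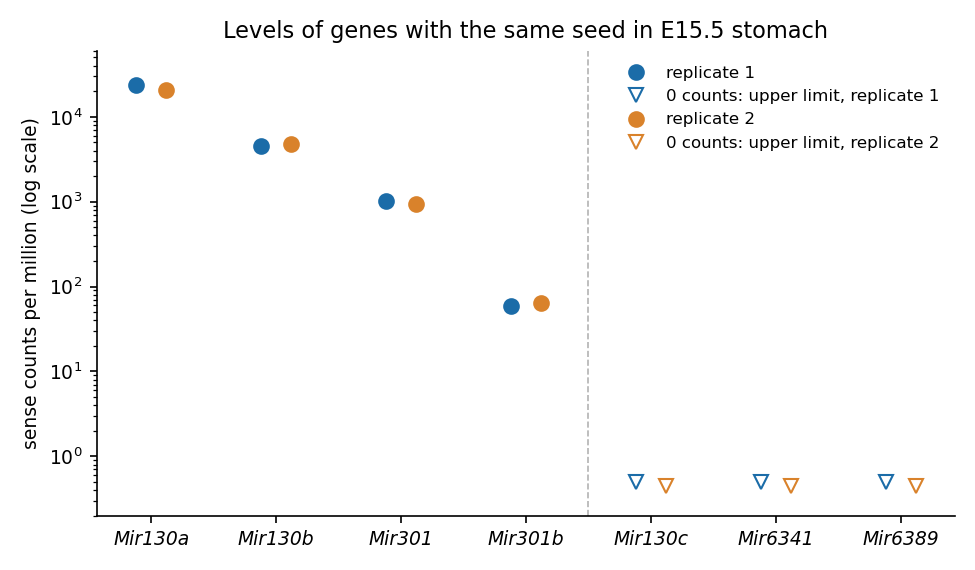
Sense CPM, on a log scale, of the 4 members (points, 1 per library) and the upper limit that 0 counts allow for 3 listed genes with the same seed (open triangles). The members fall in the order Mir130a, Mir130b, Mir301, Mir301b in both replicates, and Mir130c, Mir6341 and Mir6389 had no counts.

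Together the members made up 2.93% of the sense counts of replicate 1 (2.92 to 2.94, the 95% interval by Wilson's method) and 2.65% of those of replicate 2 (2.63 to 2.66). Intervals cover counting error only. Most of this was Mir130a, with 80.8% of the family's counts in replicate 1 (80.6 to 81.0) and 78.4% in replicate 2 (78.2 to 78.6). The pair on chromosome 16 held 15.8% in replicate 1 and 18.1% in replicate 2, nearly all of it Mir130b. Mir301 held 3.44% and 3.52%, and Mir301b 0.203% and 0.241%, in replicates 1 and 2. By type, Mir130a and Mir130b together held 96.4% and 96.2% of the family's counts in replicates 1 and 2, and Mir301 and Mir301b together 3.64% and 3.77%. The division by type had an SD of 0.0885 percentage points over the 2 pools, and the share of Mir130a an SD of 1.72.

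Ratios between members within a library do not depend on the scaling between libraries, and all 6 were much larger than their spread. With 2 pools an exact sign-flip permutation test cannot go below p = 0.5, so no p is given. Mir130a exceeded Mir130b 5.19-fold in replicate 1 (95% exact Clopper-Pearson interval 5.13 to 5.26) and 4.39-fold in replicate 2 (4.33 to 4.44). On the log2 scale this ratio was 2.25 ± 0.17 (SD, n = 2). Mir130b exceeded Mir301 by 2.26 ± 0.12, and Mir301 exceeded Mir301b by 3.98 ± 0.15 (SD, n = 2). Successive members therefore stood between 4.77-fold and 15.7-fold apart (geometric means), and Mir130a stood 360-fold above Mir301b.

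The neighbours on chromosome 16 were counted at ratios that differed between the pools by less than counting error. Mir130b exceeded Mir301b 76.7-fold in replicate 1 (95% exact interval 69.1 to 85.4) and 74.1-fold in replicate 2 (67.3 to 81.7), which is 6.24 ± 0.04 on the log2 scale (SD, n = 2). The counting intervals of the 2 libraries overlapped for this pair and for Mir301 over Mir301b, and for none of the other 4 pairs. On the log2 scale the ratio in replicate 1 was above that in replicate 2 by 0.29 for Mir130a over Mir301b and by 0.24 for Mir130a over Mir130b. For Mir130b over Mir301 it was the other way, at -0.16.

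**Figure D3:**
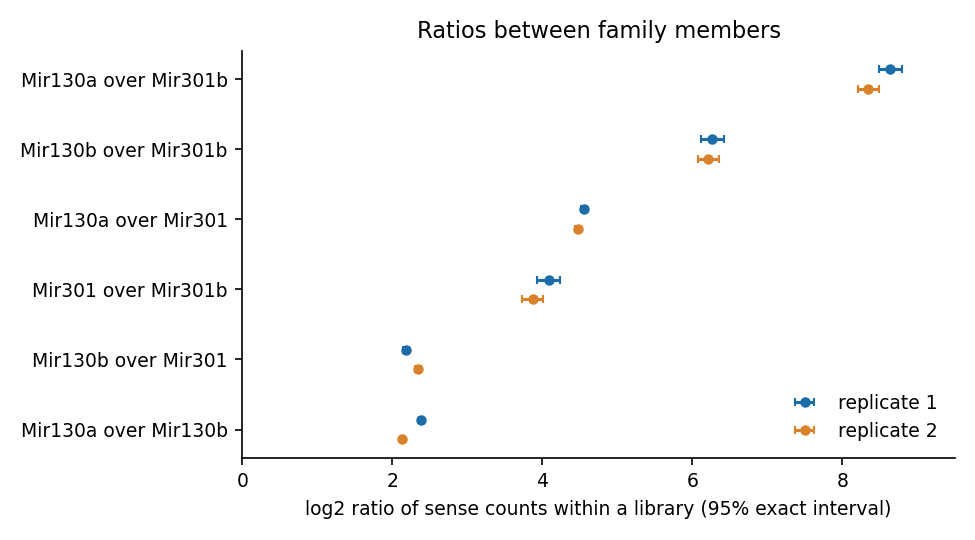
Log2 ratio of sense counts of the 6 pairs of members within each library, with 95% exact intervals. The ratio of Mir130b to Mir301b was 6.26 in replicate 1 and 6.21 in replicate 2, while that of Mir130a to Mir130b was 2.38 and 2.13.

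Few other close neighbours stood as far apart in level. Among listed miRNA genes there were 65 neighbouring pairs on the same strand, at most 1000 bp apart, with at least 10 counts in both libraries for both genes. Their absolute log2 ratio had a median of 3.16 and ranged from 0.18 to 9.51. Mir130b and Mir301b, at 6.24, were exceeded by 7 pairs. The widest gap, 9.51, was that of Mir20a and Mir19b-1, a gene that shares its mature sequence with Mir19b-2. Reads that match several places are not among the gene counts. For the family, each mature sequence in the RefSeq table was found in 1 hairpin of the 1005 in that table. miR-301b-3p has no mature entry there, and only exact matches to these hairpins were searched. Whether reads of Mir130b or Mir301b also match elsewhere in the genome was therefore not tested.

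Between the pools, each member differed by less than 2-fold. Every gene with at least 10 summed counts was tested by a two-sided exact binomial test of replicate 1 against replicate 2, with Benjamini-Hochberg adjustment over the 466 genes tested, and with a call made where the adjusted p was under 0.05 and the ratio at least 2-fold. The test compares these libraries, not conditions. None of the 4 members was called (0 of 4), against 5.79% of all genes tested (5.15% higher and 0.644% lower in replicate 1). With so small a share of all genes called, a count of 0 of 4 does not set the members apart. With no fold limit Mir130a and Mir301 passed as higher in replicate 1 and Mir130b as lower, against 46.4% of all genes (33.3% higher, 13.1% lower). The same 3 of 4 had an unadjusted p under 0.05, against 51.1% of all genes. edgeR's exact test, with a dispersion from the same 2 libraries, called 0 of 4 (0.858% of all genes). By it, 0 of 4 had an unadjusted p under 0.05 (6.65% of all genes). The differences under test themselves set that dispersion, so its result does not show that the members were alike between the pools.

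Mir130a was 0.19 higher in replicate 1 on the log2 scale (95% exact interval 0.18 to 0.20, adjusted p = 2.89e-268 by the exact test). Mir301 stood at 0.11 (0.06 to 0.16, exact test adjusted p = 6.78e-05), Mir130b at -0.052 (-0.08 to -0.03, exact test adjusted p = 3.59e-05) and Mir301b at -0.10 (-0.31 to 0.10, exact test adjusted p = 0.50). By edgeR's exact test the adjusted p of each member was 1. Of the 466 genes tested, 59.9% had a ratio larger in size than that of Mir130a, 72.5% than that of Mir301, 74.5% than that of Mir301b and 86.1% than that of Mir130b. Many of these genes had low counts, and counting error widens their ratios. The median size of the ratio was 0.27 over all genes tested and 0.15 over the 99 with a mean of at least 1000 CPM. Beside those 99, Mir130a, at 0.19, stood above the median, and Mir130b, at -0.052, below it in size. From edgeR's common dispersion, the pools varied by 20.1% (biological coefficient of variation), while the root of the median of DESeq2's dispersions per gene was 6.44% over the same 466 genes. The median ratio was 0.029 over the 4 members and 0.11 over all genes tested.

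The scaling decides how these ratios stand to 0. edgeR's TMM moved the ratios by -0.13, which put the median over all genes at 0.013. DESeq2's size factors were 1 for both libraries, so they left the counts unscaled for the library totals. With them the ratios moved by -0.16, with a median of 0. Mir130a remained above 0, at 0.063 with TMM and 0.035 with the size factors, while Mir130b stood at -0.18 and -0.21 and Mir301b at -0.23 and -0.25. Mir301 changed sign, to -0.018 with TMM and -0.045 with the size factors. What did not change with the scaling was the difference between Mir130a and Mir130b, which was 0.24 on the log2 scale from the counts alone.

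**Figure D4:**
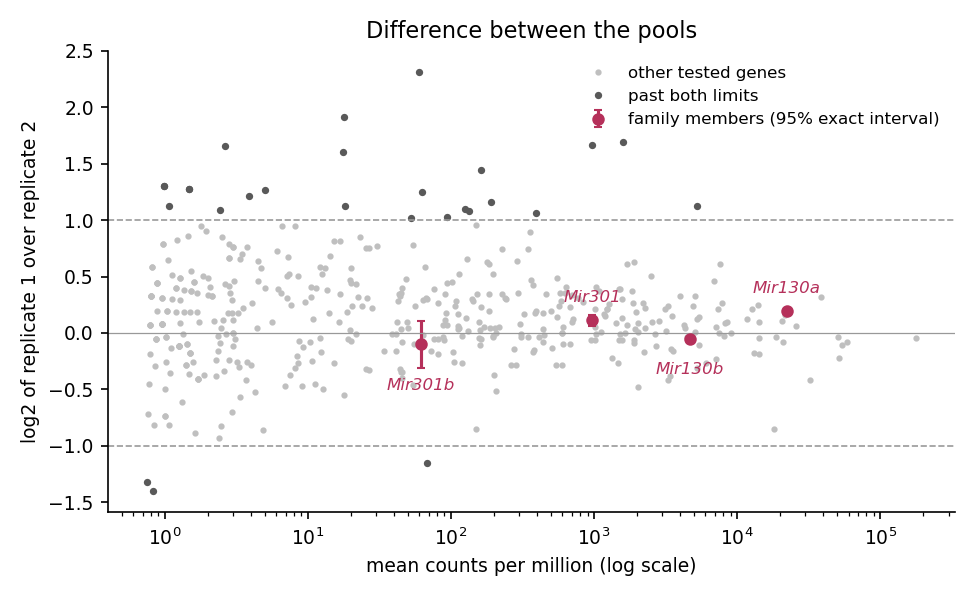
Log2 ratio of replicate 1 over replicate 2 against mean CPM (log scale) for the 466 genes tested, with the members and their 95% exact intervals in red and dashed lines at the 2-fold limit. The 4 members lie between -0.10 and 0.19, inside the dashed lines, and dark points are genes past both limits.

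Markers of other cell types were read beside these ratios, because Mir130a is known from vessels and blood. In bulk tissue, fewer cells of a type and less RNA per cell cannot be told apart. The endothelial list, led by Mir126a, had 3 of 4 genes in the tables, all with at least 10 counts in both libraries, and summed to 26617 CPM in replicate 1 and 25307 CPM in replicate 2. Nearly all of this was Mir126a, at 26216 CPM in replicate 1 and 25041 CPM in replicate 2. Mir221 stood at 283 CPM in replicate 1 and 168 CPM in replicate 2 (log2 ratio 0.75), and Mir222 at 118 CPM and 97.2 CPM (0.28). None of the 3 was called, where 5.79% of all genes were, so a count of 0 of 3 does not set the list apart. The erythroid list summed to 727 CPM in replicate 1 and 345 CPM in replicate 2, and 3 of its 3 tested genes were called higher in replicate 1, Mir144, Mir451a and Mir486. Mir122, the miRNA of hepatocytes, stood at 2445 CPM in replicate 1 and 757 CPM in replicate 2 and was called too. The white blood cell list, led by Mir223, had 4 of 5 genes in the tables, with Mir142 missing. It summed to 1374 CPM in replicate 1 and 1208 CPM in replicate 2, with 0 of 3 tested genes called. Mir142b was at 0 in both, in sense counts alone, so this 0 does not show that miR-142 was absent. The part of these cells in the Mir130a ratio was not tested.

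Markers of smooth muscle and epithelium were read beside the tissue label. Both libraries are of stomach, so these markers do not test whether stomach could be told from another tissue. Mir143 and Mir145a of smooth muscle summed to 17.8% of counts in replicate 1 and 18.3% in replicate 2, nearly all of it Mir143. In the epithelial list 8 of 8 genes, led by Mir429, summed to 7.36% and 7.82%. These sums hide differences between the pools. The log2 ratio of replicate 1 over replicate 2 was -0.85 for Mir375, 0.62 for Mir203, 0.46 for Mir205 and 0.51 for Mir145a. The other epithelial genes lay between -0.047 and 0.21. No gene of either list was called, against 5.79% of all genes tested. The neural list, led by Mir137, had 4 of 6 genes in the tables and summed to 1336 CPM in replicate 1 and 1151 CPM in replicate 2, with Mir9-2 and Mir124a-1 at 0. The striated muscle list, led by Mir206, had 5 of 6 genes in the tables and summed to 109 CPM in replicate 1 and 193 CPM in replicate 2, with Mir133a-1 and Mir133a-2 at 0. The genes at 0 have copies elsewhere in the genome, and reads shared between copies are not in the gene counts.

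The 3 other listed genes found with the family seed had no counts. Of 1738 mature entries in the RefSeq table, 7 carried the seed, 3 of them members. The 4 entries of other genes are shown because their seed, in capitals, is that of the members.
mmu-miR-130c: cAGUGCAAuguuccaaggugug
mmu-miR-6341: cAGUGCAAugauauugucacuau
mmu-miR-6389: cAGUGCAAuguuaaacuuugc
mmu-miR-721: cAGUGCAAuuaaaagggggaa
Mir130c, Mir6341 and Mir6389 were at 0 in both libraries, which allows up to 0.501 CPM in replicate 1 and 0.449 CPM in replicate 2. Mir721 was not analysed here, since no listed identifier matched it.

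miRNAs whose seed holds 6 bases of the family seed at a shifted place had much lower gene counts than Mir130a. They can pair with overlapping sites in mRNAs, and the shared bases are in capitals.
mmu-miR-148a-3p: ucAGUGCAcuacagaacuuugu
mmu-miR-152-3p: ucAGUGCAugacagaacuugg
mmu-miR-148b-3p: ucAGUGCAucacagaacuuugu
mmu-miR-19a-3p: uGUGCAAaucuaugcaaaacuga
mmu-miR-350-5p: aaAGUGCAugcgcuuuggg
Mir148a, a miRNA of glandular epithelium and liver, led them with 1034 CPM in replicate 1 and 998 CPM in replicate 2, close to Mir301. Mir350 stood at 463 CPM in replicate 1 and 248 CPM in replicate 2, with both its arms counted together. Mir152, Mir148b and Mir19a, a member of the proliferation-linked miR-17-92 cluster, had means of 161 ± 18.5, 152 ± 25.8 and 45.7 ± 8.98 CPM (SD, n = 2). Mir19b-1 had 10.7 ± 1.41 CPM (SD, n = 2), and Mir19b-2, with the same mature sequence, 4.29 ± 1.35 CPM (SD, n = 2). Reads that match both Mir19b genes are not among the gene counts, so the level of miR-19b-3p cannot be read from these values. As counted, all 8 such genes summed to 1907 CPM in replicate 1 and 1585 CPM in replicate 2. The 4 members summed to 29306 CPM and 26464 CPM. The sum of the 8 genes may be too low for the same reason as the Mir19b values.

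Genes placed downstream of the family in work on pulmonary vessels were also measured. There, repression of Pparg by the family is linked to miR-204 and to miR-424 and miR-503, of which the mouse genes are Mir204, Mir322 and Mir503. Mir322 stood at 21354 CPM in replicate 1 and 19898 CPM in replicate 2, near Mir130a. Its cluster partner Mir503 had 643 CPM in replicate 1 and 528 CPM in replicate 2, and Mir204 43.1 CPM in replicate 1 and 40.1 CPM in replicate 2. None of the 3 was called between the pools (0 of 3), against 5.79% of all genes tested.

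**Figure D5:**
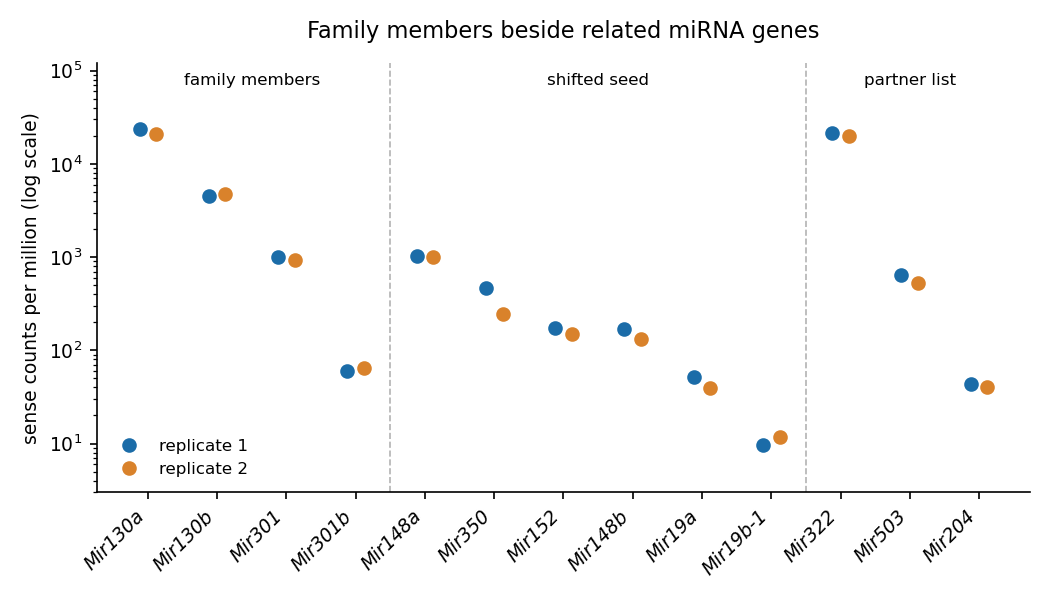
Sense CPM per library, on a log scale, of the 4 members, 6 miRNA genes with a shifted seed and 3 partner genes. Mir148a stood close to Mir301, and Mir322, at 20626 CPM on average, close to Mir130a.

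The genes nearest to each member in level were found by the summed distance on the log2(CPM + 1) scale over the 2 libraries. With 2 libraries this is a likeness of level, not of pattern. Nearest to Mir130a were Mir17 (summed distance 0.076), known from proliferating cells, and Mir322 (0.21). Nearest to Mir130b were Mir541 (0.13) and Mir382 (0.19), both on chromosome 12. Nearest to Mir301 were Mir148a and Mir96 (both 0.14), and nearest to Mir301b were Mir331 (0.081) and Mir672 (0.33).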

How the data were processed

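Per the labels, total RNA of 2 pools of embryonic stomach was size selected below 30 nt for microRNA sequencing. For each library the authors deposited a table of whole read counts by miRNA gene, for mm10 with GENCODE M4 per the deposited description files. Which programs trimmed, aligned and counted the reads is not given in the sources used here. Columns were read from the values: total, sense and opposite strand. Sense counts were used and scaled to CPM over their sum.

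Lines naming no gene were left out: reads matching several places made up 25.5% of reads in replicate 1 and 27.0% in replicate 2, unmapped reads 18.0% and 16.2%, and reads outside genes 2.92% and 2.26%. Reads of a member that also match elsewhere are thus not counted, and no correction for sequence preference in library making was made here, which touches ratios between members. A count of 0 was read as up to 3 counts.

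Identifiers without version were matched to GENCODE M21 (1894 of 1973). For ratios between pools, 1 CPM was added before dividing replicate 1 by replicate 2. With 1 group, no quasi-likelihood test between conditions can be run, so the exact binomial test and edgeR's common dispersion were used. The binomial test was tried on data simulated with counting error only, so that trial does not show how it behaves where pools vary. The dispersion estimate was tried on data simulated with a known spread. Members and lists were chosen with earlier results of these data known. Named were the members, same-seed genes, up to 6 shifted-seed genes, the 2 nearest genes per member, partners and the highest marker of each list; Mir19b-2, Mir20a and the other markers were named after their values were seen. Alternatives changed scaling, strand, total, count minimum, fold limit, pseudocount, test and gene length, and left out each replicate. Hairpins were aligned with Biopython 1.88 and folded with RNAfold 2.7.2. Other tools were Python 3.11.15, scipy 1.17.1, R 4.3.3, edgeR 4.0.16 and DESeq2 1.42.0.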

Additional observations from a re-analysis of the deposited data

Results flagged for a closer look

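Reads that match several places stand outside the gene counts, at 2946663 in replicate 1 and 3406967 in replicate 2. Whether any belong to the family was not tested.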

How the results depend on the processing

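The members kept their order of level in the alternatives given here. With a total that leaves out the 10 most abundant genes, Mir130a among them, mean CPM became 47475 for Mir130a, 9944 for Mir130b, 2075 for Mir301 and 132 for Mir301b, and the family share 5.96%. With reads matching several places and outside genes in the total the share was 1.76%. With opposite-strand counts in the total, or in both gene counts and total, Mir130b stood at 4494 CPM, and with them in the counts the places by level were 45 for Mir130b, 107 for Mir301 and 230 for Mir301b. Without either replicate in turn, the place was 9 to 11 for Mir130a, 39 to 42 for Mir130b and 99 to 100 for Mir301. Counts per base of annotated gene, an alternative chosen after seeing the data, gave log2 ratios of 2.61 for Mir130a over Mir130b, 4.94 over Mir301 and 9.09 over Mir301b, 6.48 for Mir130b over Mir301b and 4.15 for Mir301 over Mir301b. With pseudocount 5 Mir130b over Mir301b was 6.13. The 27 genes called between pools numbered 16 with a minimum of 100, 216 with no fold limit, 13 with pseudocount 5 and 4 with edgeR's exact test. Members called, 0 of 4, became 3 with no fold limit. Mir301 changed sign to -0.018 with TMM and edgeR's exact test and -0.045 with DESeq2 size factors. The coefficient of variation, 0.201, became 0.219 with library totals alone and 0.0644 from the median of DESeq2's dispersions per gene, as a root. No paired analysis was possible because both libraries belong to 1 group. Of the members, Mir301b, at 356 and 426 counts, has the widest counting interval.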
